A study of Mus musculus with 78 samples.

Results

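Alas2 was read through 1 probe set, 1451675_a_at, the only 1 of 45101 probe sets on the array whose annotation names Alas2 and no other gene. It is 1 of the 14718 genes kept by a filter on low signals, which is no detection call. Alas2 was chosen from its own measured values in these data, as a transcript of red blood cells in a vessel-rich site, so its levels are given below as a description with no test. Tests are given for other genes only, and these come from the same arrays.

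Alas2 encodes the erythroid form of 5-aminolevulinate synthase, the mitochondrial enzyme that joins glycine and succinyl-CoA in the first, rate-limiting step of haem synthesis. It is made in erythroblasts and is still carried as mRNA by reticulocytes, the young red cells that circulate; most other tissues make their haem with the paralog Alas1. Translation of Alas2 mRNA is controlled by iron, and inherited loss of the enzyme causes X-linked sideroblastic anaemia. In tissue outside the marrow and spleen, its transcript is therefore used as a marker of blood-borne erythroid RNA.

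The tissue was flank skin of mice given Ad-VEGF-A164, an adenovirus that makes VEGF-A164, by intradermal injection, a model in which new blood vessels of several kinds form over weeks. All animals were female athymic nude mice, Crl:NU(NCr)-Foxn1nu, 4 to 6 weeks old, and total RNA from each sample went on 1 array, 78 in all. The 10 groups were control tissue at day 0, and untreated, G6-treated and DC101-treated tissue at days 5, 20 and 60, with 8 arrays each except 6 for DC101 at day 60. G6 was given at 10 mg/kg and DC101 at 20 mg/kg by intraperitoneal injection; the labels call both anti-VEGF receptor antibodies, and DC101 is a rat antibody against mouse VEGFR2. The labels do not say whether control mice received virus, and there was no group with an empty vector, so the virus and its VEGF-A164 cannot be told apart. They do not state whether a day counts from injection or from treatment, and give the same age range for day 0 and day 60. All control tissue was labelled day 0, so time and animal age cannot be told apart from VEGF-A164 in comparisons with it. Arrays are not tied to animals in the labels, so the spread given here, and every p-value, may in part be technical. Nude mice lack a thymus, which limits the T cells such tissue can hold.

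Array medians ran from 455 to 583 signal units after scaling, and the number of arrays limits the precision. A level below means log2(signal + 16), and the filter level, 8.44 on that scale, is the 40th percentile of all signals. The ratio of 3′ to 5′ Actb signal, a sign of RNA quality, had group medians between 1.29 and 2.22; at day 60 it ran from 1.81 to 3.03 with G6 and from 1.17 to 1.56 with DC101, so those groups did not overlap in it. Within groups its log2 had a Pearson r of -0.25 with Alas2 over the 78 arrays.

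The Alas2 gene lies on the plus strand of chromosome X, at chrX:150547417-150570622 in GRCm38.p6. Erythroid promoters are known for GATA and CACCC elements, bound by GATA1 and KLF1, and the 250 bases before the RefSeq start, chrX:150547167-150547416, are shown because both kinds of letters occur there. Capitals mark the matches.

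Alas2 promoter: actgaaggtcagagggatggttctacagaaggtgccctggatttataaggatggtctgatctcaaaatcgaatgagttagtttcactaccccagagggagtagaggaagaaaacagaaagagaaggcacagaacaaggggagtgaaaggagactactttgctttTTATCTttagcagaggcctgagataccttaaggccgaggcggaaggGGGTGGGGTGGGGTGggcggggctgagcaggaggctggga

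Both strands were searched. A GATA match was the word AGATAA, or the same word with T in first place (TGATAA); the forms ending in G, which are AGATAG and likewise TGATAG, counted too. A CACCC match was those letters alone. The window held 1 GATA match, beginning 86 bases before the start, and 3 adjoining CACCC matches on the opposite strand, beginning 40, 35 and 30 bases before it. Of 32851 RefSeq mouse promoter windows of this length, 26.5% held a GATA match, 52.01% a CACCC match and 11.8% both. Alas1, the housekeeping paralog on chromosome 9, has 2 windows in the table; each held 1 CACCC match and no GATA match. A match is a description of letters and not a site shown to be bound.

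In control flank tissue Alas2 was above the filter level on all 8 arrays, with signals from 473 to 3102 and a median of 1092. The mean level was 10.22 ± 0.83 (SD, n = 8). In bulk tissue, fewer cells of a type and less RNA per cell cannot be told apart, for Alas2 and for every gene below.

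Without antibody, Alas2 was higher than in control tissue at each day. At day 5 the untreated signals ran from 1550 to 7802 with a median of 3333, and the mean level was 11.71 ± 0.90 (SD, n = 8). At day 20 they ran from 1513 to 11377 with a median of 6923, and the mean level was 12.36 ± 1.23 (SD, n = 8). At day 60 they ran from 961 to 21465 with a median of 3898, and the mean level was 12.21 ± 1.53 (SD, n = 8). These means exceeded that of control by 1.49, 2.14 and 1.99 on the log2 scale, or 2.81-, 4.41- and 3.97-fold. The groups overlapped at every day: 4, 6 and 4 of the 8 untreated arrays at days 5, 20 and 60 lay above the highest control array. The highest single value of the series was at day 60, in a group that also held an array below the control median.

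G6-treated tissue had the lowest Alas2 of the series. At day 5 its signals ran from 183 to 681 with a median of 351, a mean level of 8.57 ± 0.65 (SD, n = 8), and only 4 of the 8 arrays were above the filter level. Every G6 array lay below every untreated array of that day, and the difference of the means was -3.15, an 8.85-fold lower level, with 4 G6 signals under the filter level in that mean. The same tissue was also 1.66 below control on the log2 scale, with 5 of 8 arrays under the lowest control array.

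At day 20 the G6 arrays spread more widely than any other group, from 53.2 to 3548 with a median of 366, and the mean level was 8.80 ± 2.17 (SD, n = 8). Only 4 of the 8 arrays were above the filter level, so the size of a fold against this group is poorly set. The difference of the means from untreated tissue was -3.56, and 6 of the 8 G6 arrays lay below all untreated arrays; the other 2 fell among them. Those 2 arrays carried adjacent running numbers in the sample titles, as did the 2 lowest.

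At day 60 G6 signals ran from 346 to 1119 with a median of 663, all above the filter level, with a mean level of 9.33 ± 0.57 (SD, n = 8). The difference from untreated tissue of that day was -2.88, a 7.37-fold lower level, and 7 of 8 G6 arrays lay below all untreated arrays. It was 0.89 lower than in control tissue, where the ranges overlapped for all but 2 of the G6 arrays.

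DC101-treated tissue had a mean Alas2 level near that of untreated tissue at day 5, with 2 of 8 arrays above the untreated range, and a lower one at day 60. Its day 5 signals ran from 1557 to 10639 with a median of 3992, and its mean level of 11.93 ± 1.06 (SD, n = 8) was 0.22 above untreated, well inside the spread of either group. At day 20 its signals ran from 395 to 10548 with a median of 2528; the mean level, 11.30 ± 1.55 (SD, n = 8), was 1.06 below untreated, with 2 of 8 DC101 arrays under the untreated range. At day 60 its 6 signals ran from 467 to 2921 with a median of 850, a mean level of 10.02 ± 1.14 (SD, n = 6), which was 2.20 below untreated (4.58-fold). Of these 6 arrays 3 lay below all untreated arrays. DC101 means thus stood in the order day 5, day 20, day 60 from high to low, while neighbouring days overlapped.

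Set against each other, the antibodies differed most at day 5, when all 8 G6 arrays lay below all 8 DC101 arrays and the mean difference was -3.37. At day 20 the difference was -2.50, with 4 of 8 G6 arrays below the DC101 range. At day 60 it was -0.69 (1.61-fold), with 2 of 8 below it. The day 60 value turned to 1.21 with the RNA ratios as covariates, the only Alas2 difference to change direction under the alternatives tried. The same covariates moved untreated minus control at day 60 from 1.99 to 2.91, G6 minus untreated at day 60 from -2.88 to -1.97, and DC101 minus untreated from -1.06 to -0.39 at day 20 and from -2.20 to -3.18 at day 60. The part of RNA quality in these values was not tested. Doses were not matched between the antibodies (10 and 20 mg/kg).

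**Figure D1:**
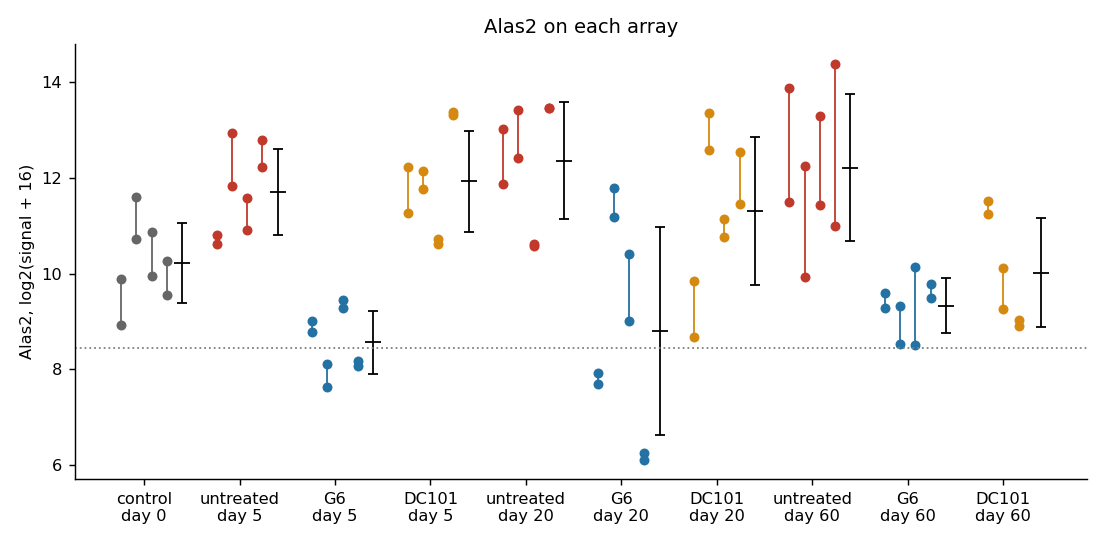
Alas2 level, log2(signal + 16), on each of the 78 arrays by group; thin lines join arrays with adjacent running numbers, black bars show the group mean ± SD, and the dotted line is the filter level of 8.44. G6 arrays at day 5 all lie below the untreated and DC101 arrays of that day, and the G6 arrays at day 20 have the widest spread.

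The order of the group means, from high to low, was untreated day 20, untreated day 60, DC101 day 5, untreated day 5, DC101 day 20, control, DC101 day 60, G6 day 60, G6 day 20 and G6 day 5. No 2 neighbours in this order differed by more than their pooled SD; the widest gap, 1.08 between DC101 at day 20 and control, stood against a pooled SD of 1.24.

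Arrays with adjacent running numbers resembled each other in Alas2. Over 39 such pairs the median gap was 0.67 on the log2 scale, against 1.26 over the 228 other pairs of arrays within groups. The resemblance was close at day 5 with G6, where the largest of 4 gaps was 0.47, and at day 20 in 1 untreated pair with signals of 11377 and 11369. It was absent in untreated tissue at day 60, where the 4 gaps ran from 1.86 to 3.40. The titles do not say whether such arrays share an animal. If they do, the group sizes for Alas2 are nearer 4 than 8.

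Globin transcripts, the most abundant products of the cells that make Alas2, were next set beside it. The adult globin probe sets with strong signal each match several near-identical genes, so their values belong to a family and not to 1 gene. There were 4 such sets, and the alpha set described in full is the one whose values lay closest to Alas2, so it was chosen after they were seen. The alpha globin set 1417714_x_at (Hba-a1 and Hba-a2) had a median signal of 34993 in control tissue and of 51862, 63038 and 75982 in untreated tissue at days 5, 20 and 60. With G6 its medians were 7958, 14630 and 18456 at those days, and with DC101 67971, 70909 and 29705. At day 5 the G6 range, 1446 to 13809, did not overlap the untreated range, 25026 to 85315. At day 60 the ranges met at their ends, with G6 reaching 28273 and untreated tissue starting at 26906.

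The alpha set fell with G6, with differences from untreated tissue of -3.05 (SE 0.50) at day 5, -2.004 (SE 0.50) at day 20 and -2.21 (SE 0.50) at day 60, with adjusted p-values of 1.7e-06, 0.0056 and 0.0018 in limma, lower on 8, 6 and 8 of 8 arrays. The day 20 call was lost with adjacent arrays averaged (adjusted p = 0.079) and with only the compared groups in the fit (adjusted p = 0.080). The day 60 call was lost with the RNA ratios as covariates (adjusted p = 0.12). With DC101 the differences were 0.19, -0.22 and -1.48, none past the threshold of 0.05 (adjusted p = 0.86, 0.84 and 0.057). In untreated against control tissue they were 0.70, 0.92 and 1.14, again short of the threshold (adjusted p = 0.24, 0.13 and 0.064); with only the compared groups in the fit, days 20 and 60 passed (adjusted p = 0.033 and 0.021).

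The beta globin set 1417184_s_at was 0.08, 0.15 and 0.49 above control in untreated tissue (adjusted p = 0.85, 0.74 and 0.22), where Alas2 was 1.49, 2.14 and 1.99 above it. With G6 it fell by 1.94 (SE 0.31), 1.13 (SE 0.31) and 1.01 (SE 0.31) against untreated tissue (adjusted p = 1.5e-06, 0.013 and 0.024, limma), lower on 8, 6 and 8 of 8 arrays; averaging adjacent arrays kept the call at day 5 (adjusted p = 0.00078) and lost those at days 20 and 60 (0.11 and 0.14). The day 20 call of the beta set was also lost with only the compared groups in the fit (adjusted p = 0.11, limma). Its day 60 call was also lost with the RNA ratios as covariates (adjusted p = 0.22). The other alpha sets, 1428361_x_at and 1452757_s_at, also fell with G6 at day 5, by 1.76 and 1.14 (adjusted p = 6.7e-06 and 9.1e-05, limma). At days 20 and 60 their differences were -0.91 and -1.03 for the first (adjusted p = 0.045 and 0.018) and -0.52 and -0.66 for the second (0.15 and 0.048), and none of these passed with adjacent arrays averaged (0.11 to 0.34). In untreated against control tissue their differences were 0.07, 0.04 and 0.47 for 1428361_x_at (adjusted p = 0.87, 0.94 and 0.23) and -0.16, -0.18 and 0.27 for 1452757_s_at (0.59, 0.57 and 0.37). All 4 sets fell with G6 relative to DC101 at day 5, with differences from -3.24 to -1.29, and each kept that call under the alternatives run for it. Control medians were already 52978 for the beta set, 63707 for 1428361_x_at, 61888.5 for 1452757_s_at and 34993 for 1417714_x_at. Whether signals this high still rise in proportion to RNA was not tested. This limits how far their rises can be set beside those of Alas2.

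Across arrays the alpha set 1417714_x_at followed Alas2 closely, with Pearson r = 0.90 and Spearman rho = 0.93 over 78 arrays, and r = 0.82 once group means were subtracted, a value that no single gene exceeded. Within groups r was 0.63 for the beta set, and 0.56 and 0.40 for the other alpha sets. The relation was not straight. On the 39 arrays above the median level of the alpha set, that level spanned 15.50 to 16.72 while Alas2 spanned 10.27 to 14.39. Those arrays were 19 untreated, 14 DC101, 3 G6 and 3 control arrays. On the other 39 arrays the alpha set spanned 10.51 to 15.42 and Alas2 6.11 to 10.80. The globin probe sets that name 1 gene did not follow Alas2: within groups r was -0.07 for Hba-a2 and -0.26 for Hbb-b2. Hbb-b2 was above the filter level on all 78 arrays, with group means from 9.61 to 10.43, and Hba-a2 on 47. Neither passed in any of the 12 comparisons (0 calls in limma), and an unadjusted p was under 0.05 for 1 of them in untreated against control at day 20, 1 in G6 against untreated at day 60 and 2 in G6 against DC101 at day 20. Points of 1 array share its RNA, scaling and adjacent-array likeness, so these correlations carry no p.

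**Figure D2:**
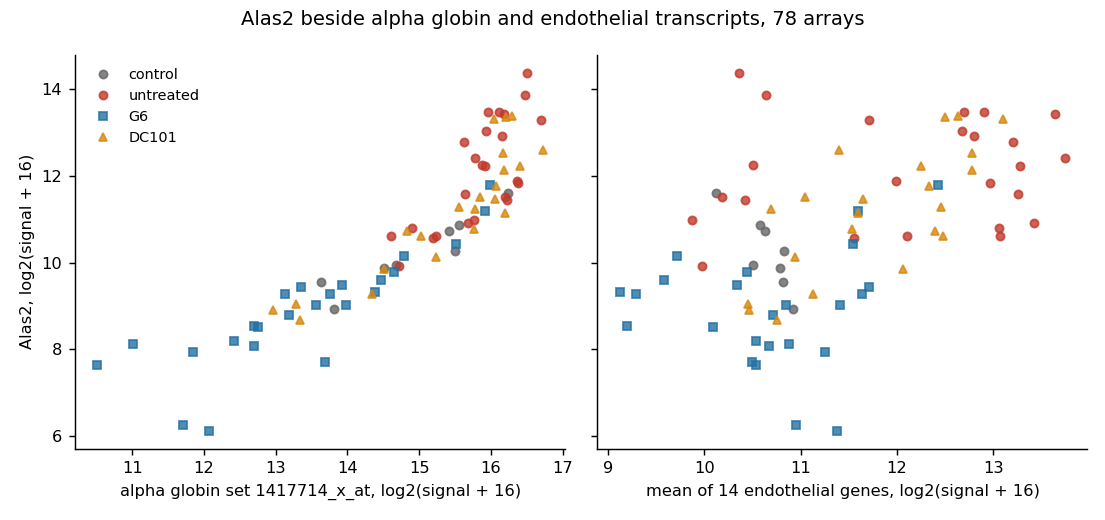
Alas2 level on each of the 78 arrays against the alpha globin set 1417714_x_at (left) and against the mean level of 14 endothelial genes (right), all as log2(signal + 16), with colours and shapes for treatment. The left cloud is a bent band that runs steeply at high alpha globin levels, and the right cloud holds untreated arrays with high Alas2 at both ends of the endothelial scale.

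Erythroid-restricted genes other than Alas2 gave a mixed check of the label. Of 24 listed genes 17 had a probe set of their own and 11 passed the filter; Epb42, Rhag and Hemgn were above the filter level on 0 arrays, and Car1 on 1. Most of the 11 sat close to that level: the group means of Ermap ran from 7.94 to 8.35, those of Gata1 from 8.42 to 8.82 and those of Klf1 from 8.08 to 9.08. Slc4a1, the band 3 anion exchanger of the red cell membrane, had the widest range of group means among the 11, from 8.85 to 10.46.

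Slc4a1 rose in untreated tissue by 0.96 (SE 0.33) at day 5 and 0.93 (SE 0.33) at day 60 (adjusted p = 0.011 and 0.021, limma), higher on 8 of 8 arrays each time; at day 20 it was 0.74 higher (adjusted p = 0.061). With G6 it fell against untreated tissue by 1.61 at day 5 and 1.03 at day 20 (adjusted p = 9.0e-05 and 0.032), lower on 8 of 8 arrays, and was 0.75 lower at day 60 (adjusted p = 0.12). With DC101 it fell by 1.02 at day 60 (adjusted p = 0.047; lower on 5 of 6 arrays). Relative to DC101 at day 5 it fell with G6, by a difference of -1.22 (adjusted p = 0.0078; lower on 7 of 8 arrays). Of these 6 calls only G6 against untreated at day 5 held when adjacent arrays were averaged and also with the RNA ratios as covariates. Its r with Alas2 was 0.92 over the 10 group means but 0.19 within groups. Slc4a1 was the highest of the 11 genes over group means. Their median r there was -0.01, and the lowest was -0.71 for Klf1.

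Counted over the 11 genes, 2 passed in untreated against control at day 5 (Slc4a1 and Trim10), where 52.8% of all genes tested passed. None passed at day 20, where 41.1% of all genes did and 2 of the 11 had an unadjusted p under 0.05 in limma, and 1 passed at day 60 (35.6% of all genes). For G6 against untreated 1 fell at day 5 and 1 at day 20, Slc4a1 both times, against 31.7% and 9.98% of all genes changed; 0 passed at day 60 (11.9% of all genes; 2 with an unadjusted p under 0.05). For DC101 against untreated 0 passed at days 5 and 20 (11.8% and 7.69% of all genes; 0 with an unadjusted p under 0.05 at either) and Slc4a1 fell at day 60 (11.6% of all genes). For G6 against DC101 1 fell at day 5 (11.5% of all genes), 0 passed at day 20 (0.245% of all genes; 4 with an unadjusted p under 0.05), and Tfr2 alone rose at day 60 (40.5% of all genes). The list's median difference stayed between -0.24 and 0.21 in all 12 comparisons, and its share of calls was below that of all genes in each of them.

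Alas1, the housekeeping paralog that catalyses the same step, did not follow Alas2. Its control levels ran from 11.99 to 12.99, and the group means in all other groups lay between 11.39 and 11.75. It fell in untreated tissue by 0.89, 0.80 and 0.69 at days 5, 20 and 60 (adjusted p = 3.1e-09, 1.3e-07 and 5.9e-06, limma; lower on 8 of 8 arrays each day), where Alas2 was higher. At day 5 it rose with G6 by 0.31 and with DC101 by 0.35 against untreated tissue (adjusted p = 0.037 and 0.041). Within groups its r with Alas2 was 0.05.

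Downstream steps of haem synthesis did not move with Alas2 as a set. In untreated against control tissue 5, 5 and 4 of the 10 measured genes fell at days 5, 20 and 60 and 0 rose. Over all genes 52.8%, 41.1% and 35.6% changed in either direction. Of all 14718 genes 3662, 2714 and 2483 fell, and 4105, 3342 and 2758 rose. Alad, the second enzyme of the pathway, fell by 0.65, 0.49 and 1.08 (adjusted p = 0.00038, 0.0094 and 2.8e-07, limma). Cpox, coproporphyrinogen oxidase, rose with G6 against untreated tissue by 0.70, 0.72 and 0.52 (adjusted p = 0.00043, 0.0020 and 0.021). Its day 20 call was lost when untreated arrays 51 and 52 were left out. Its day 60 call did not hold once RNA ratios entered the model. Fech, which inserts iron into the finished ring, fell by 0.72 in untreated tissue at day 5 (adjusted p = 0.00058) and by 0.76 with G6 at day 60 (adjusted p = 0.0036). This G6 call for Fech was likewise lost once RNA ratios entered the model. Fech was the gene of this list with the highest within-group r with Alas2, 0.50.

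Among the 60 measured genes of haem, iron, globin, membrane and red cell lists together, 15 rose and 12 fell in untreated tissue at day 5, 8 and 13 at day 20, and 10 and 10 at day 60, a smaller share than over all genes (52.8%, 41.1% and 35.6%). With G6 against untreated tissue 8 rose and 14 fell at day 5, 2 and 5 at day 20, and 2 and 10 at day 60; with DC101 the counts were 1 and 6, 3 and 2, and 1 and 8. For G6 against DC101 they were 5 and 7 at day 5, 0 and 0 at day 20 (8 with an unadjusted p under 0.05 in limma) and 10 and 13 at day 60. The shares over all genes were 31.7%, 9.98% and 11.9% for G6 against untreated tissue, 11.8%, 7.69% and 11.6% for DC101, and 11.5%, 0.245% and 40.5% for G6 against DC101. The list's median differences lay between -0.10 and 0.10 throughout. In untreated tissue at day 5, Hmox1, which breaks haem down, rose by 3.42, and the membrane skeleton genes Tmod1, Ank1 and Sptb fell by 2.60, 1.61 and 1.59 there (adjusted p = 7.8e-18, 2.8e-10, 4.9e-09 and 3.8e-08). Of the 10 skeletal muscle markers 9 fell in that comparison, and their summed signal ran from 213780 to 349188 against 565876 to 1252390 in control tissue; the part of muscle content in the fall of Tmod1, Ank1 and Sptb was not tested.

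Of the reticulocyte and late red cell list, Tent5c came nearest to Alas2. The 10 measured genes of this list had a median within-group r of 0.04, with Prdx2 lowest at -0.35. In untreated tissue 2 rose and 3 fell at day 5, 2 and 2 at day 20, and 4 and 1 at day 60. For G6 against untreated tissue the counts were 1 and 5, 0 and 2, and 0 and 3. Over all genes 52.8%, 41.1% and 35.6% changed in untreated tissue, and 31.7%, 9.98% and 11.9% with G6. Tent5c encodes a cytoplasmic poly(A) polymerase found in late erythroid cells and also in plasma cells. Its levels ran from 9.06 to 10.75 in control tissue (median 9.80) and from 10.60 to 12.40 in untreated tissue at day 5 (median 11.36). It rose in untreated tissue by 1.63, 1.65 and 1.75 at days 5, 20 and 60 and fell with G6 by 1.88, 1.53 and 1.74 against untreated tissue, each with SE 0.36 (adjusted p = 8.3e-05, 0.00012, 9.3e-05, 3.2e-05, 0.0035 and 0.00075, limma), on 8 of 8 arrays every time. With DC101 it was 0.36 and 0.46 lower at days 5 and 20 (adjusted p = 0.57 and 0.48) and fell at day 60, by a difference of -1.603 (adjusted p = 0.0039; 6 of 6 arrays). Its day 20 call with G6 was just lost with adjacent arrays averaged (adjusted p = 0.0501), without the untreated arrays numbered 51 and 52 (0.054) and with only the compared groups in the fit (0.055), and its day 60 call with the RNA ratios as covariates (0.13).

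Bpgm, which makes the 2,3-bisphosphoglycerate that loosens oxygen from haemoglobin, fell with G6 against untreated tissue by 1.20, 0.99 and 1.09 (adjusted p = 0.00012, 0.0060 and 0.0022) but differed from control in untreated tissue by no more than 0.40 (adjusted p = 0.17 to 0.84). Its call at day 20 was lost without arrays 51 and 52 (adjusted p = 0.052), and at day 60 with the RNA ratios as covariates (0.28) and with only the compared groups in the fit (0.086).

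**Figure D3:**
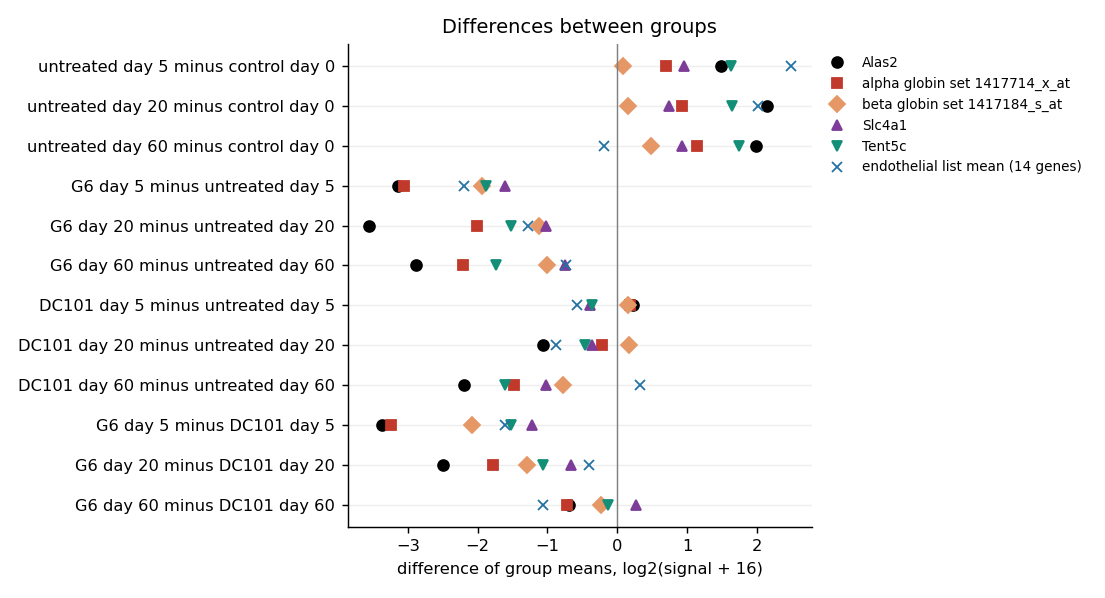
Difference between group means, in log2(signal + 16), for each of the 12 comparisons; symbols are Alas2, the alpha and beta globin sets, Slc4a1, Tent5c and the mean of 14 endothelial genes. Within each G6 minus untreated row Alas2 stands further from 0 than the other symbols. In untreated day 60 minus control the endothelial mean is at -0.19 while Alas2 is at 1.99.

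The genes most like Alas2 over single arrays were found by Pearson correlation after subtracting group means, over 78 arrays and 14717 other genes. The central 95% of those genes had r between -0.35 and 0.42. The 12 highest were Tent5c (0.82), Hif3a (0.78), Ppbp (0.77), Isg20 (0.69), Ube2l6 (0.64), Clec1b (0.63), Vegfc (0.61), Apol11b, Itga1, Map1a and Fam220a (each 0.59), and Actg2 (0.58). With adjacent arrays averaged to 39 points, the first 3 kept r values of 0.81, 0.82 and 0.78. Without subtraction of group means the first 7 were Tent5c (0.89), Hif3a (0.85), Isg20 (0.81), Ppbp (0.77), Ube2l6 (0.76), Apol11b (0.71) and Clec1b (0.67), followed by Tagln, Actl7b, Rab13, Myl9 and Cald1 (0.66 to 0.64).

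Spearman rho gave the same leaders, with 0.83 for Tent5c, 0.79 for Hif3a and 0.79 for Ppbp within groups. Hif3a, a hypoxia-inducible factor subunit, had a mean level of 10.16 in control tissue, 11.47 in untreated tissue at day 20 and 9.58 with G6 at day 60. Apol11b followed Alas2 over the 10 group means with r = 0.93, but its own group means, 5.36 to 7.40, were all below the filter level.

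Platelet markers were next to Alas2 in part. Ppbp (pro-platelet basic protein) and Clec1b (the podoplanin receptor CLEC-2) had within-group r of 0.77 and 0.63, but the 8 platelet and megakaryocyte markers had a median of 0.17, and Gp6 had -0.18. Ppbp levels ran from 7.48 to 9.09 in control tissue (median 8.17), from 9.82 to 10.86 in untreated tissue at day 5 (median 10.09) and from 7.07 to 9.26 with G6 (median 8.28), so untreated day 5 stood apart from both. Ppbp rose by 1.95, 1.96 and 1.05 in untreated tissue at days 5, 20 and 60 (adjusted p = 8.5e-05, 0.00013 and 0.047, limma) and fell with G6 by 1.95, 1.47 and 1.68 (adjusted p = 0.00027, 0.019 and 0.0057). Ppbp is described in full because it had the highest within-group r of this list. It was above the filter level on 42 of the 78 arrays, and Clec1b on 19. The control and G6 day 5 medians of Ppbp lay below the filter level of 8.44. No result under the alternatives is given for these Ppbp tests. The list as a whole counted 5, 4 and 4 of 8 higher in untreated tissue, and 2, 2 and 1 of 8 lower with G6 (1 was higher at day 60), beside 52.8%, 41.1% and 35.6% of all genes changed in untreated tissue and 31.7%, 9.98% and 11.9% with G6. Its summed signal overlapped between untreated (18344 to 27381) and G6 tissue (16031 to 21624) at day 5.

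Endothelial markers, which line the vessels that hold the blood, stood high where Alas2 did at days 5 and 20 but not at day 60. In untreated tissue 13 of 14 rose and 1 fell at day 5, and 13 rose at day 20, with medians of 2.59 and 2.16, and 0 changed at day 60, with a median of -0.28. Alas2 at those days was 1.49, 2.14 and 1.99 above control. With G6 13, 11 and 5 of 14 fell against untreated tissue at days 5, 20 and 60. With DC101 2, 9 and 0 fell, and 1 rose at day 60. Over all genes 52.8%, 41.1% and 35.6% changed in untreated tissue at those days. The shares were 31.7%, 9.98% and 11.9% with G6, and 11.8%, 7.69% and 11.6% with DC101. DC101 at day 5 held an endothelial mean 0.58 below untreated with Alas2 0.22 above untreated. At day 60 it held an endothelial mean 0.33 above untreated with Alas2 2.20 below untreated. Against control, G6 tissue at day 5 had an endothelial mean 0.29 higher and Alas2 1.66 lower.

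The summed signal of the 14 endothelial genes ran from 17682 to 55075 in untreated tissue at day 60 and from 20194 to 34491 in control, against 127598 to 195972 in untreated tissue at day 5. Within groups the endothelial mean had r = 0.51 with Alas2 (78 arrays), the median over its genes was 0.42, and the highest was Cdh5, VE-cadherin, at 0.54. The part of vessel content in the Alas2 values was not tested.

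Other marker lists were less like Alas2 within groups. Their median r was 0.23 for 5 B cell genes (highest Ms4a1, 0.36), 0.22 for 8 neutrophil genes (highest Mmp8, 0.30), 0.09 for 10 macrophage genes (highest Vcam1, 0.30), 0.04 for 10 skeletal muscle genes (highest Tnnc2, 0.08), -0.08 for 9 cell cycle genes (highest Cdk1, -0.05), -0.09 for 8 keratinocyte genes (highest Lor, 0.05) and -0.10 for 7 marrow granulocyte precursor genes (highest Chil3, 0.33). The erythroid-restricted list itself had a median of -0.02, with Trim10 highest at 0.36.

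**Figure D4:**
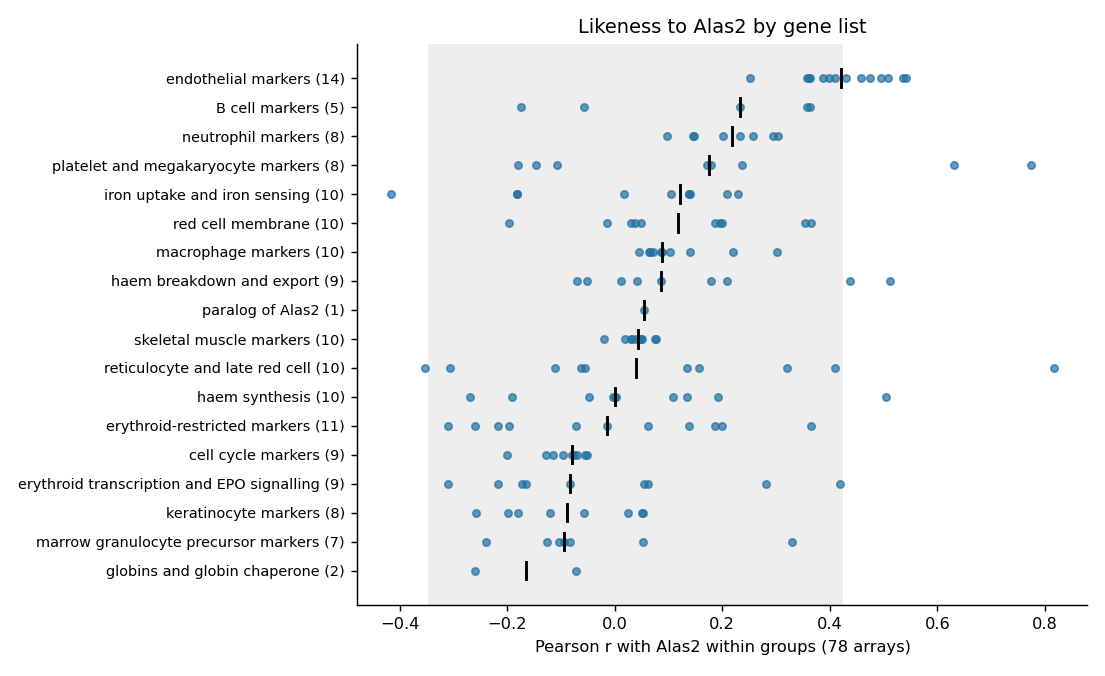
Pearson r with Alas2 within groups, over 78 arrays, for each measured gene of each list; dots are genes, black bars list medians, numbers in brackets the genes measured, and the grey band the central 95% of all genes (-0.35 to 0.42). The endothelial list has the highest median, and the single dots furthest to the right are Tent5c, Ppbp and Clec1b.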

How the data were processed

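Flank tissue RNA of mice was hybridised to Affymetrix expression arrays, 78 in number. The deposited values are MAS5 signal intensities on a linear scale, made by the authors with MAS5 in GCOS 1.3, per the submitters' processing notes; leaving out the tails, the central 96% of probe sets averaged 1500 on every array. A probe set had 1 gene symbol in 34958 of 45101 cases. Here log2(signal + 16) was used, a pseudocount that understates folds of dim genes. Probe sets above a signal of 331, the 40th percentile, on at least 6 arrays were kept, and the brightest of each gene gave 14718 genes. A limma (3.58.1, R 4.3.3) model over all 10 groups, with an intensity trend and Benjamini-Hochberg adjustment at 0.05, gave 12 two-sided comparisons. It was tested on simulated data with independent arrays, so that test does not cover the likeness of adjacent arrays. Group means, SDs and correlations describe Alas2, which was not tested. Named genes are Alas1, the erythroid-restricted genes, up to 4 rises and 4 falls of each comparison in the fixed lists, the 12 genes most like Alas2 within groups and over all arrays, and the likest of each marker list. Adult globin probe sets with several symbols were added to the model, giving 14722 features, after the data were seen; the split of arrays at the alpha set's median was also chosen then. Genes and lists were chosen with earlier results of these data known. Alternatives were the pseudocount, quantile normalization, no filter, only the compared groups, RNA 3′ to 5′ ratios as covariates, adjacent arrays averaged, and untreated day 20 without arrays 51 and 52.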

Additional observations from a re-analysis of the deposited data

Results flagged for a closer look

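Of 110 sets of arrays examined for a single far value (11 measures in 10 groups), 7 had one, where chance gives about 5% of sets; Alas2 had none in any of the 10 groups. The alpha globin set 1417714_x_at was at 14.72 on untreated day 60 array 76, against a group median of 16.21. A single control array was high in the alpha set 1452757_s_at (16.70, median 15.92) and in Alas1 (12.99, median 12.22). DC101 day 20 array 65 was low in Slc4a1 (8.74, median 10.11) and in Clec1b (6.53, median 7.81). Tent5c was at 10.27 on G6 day 5 array 14 (median 9.59). The endothelial mean was at 11.70 on untreated day 60 array 77 (median 10.39).

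Effects of an antibody against untreated tissue were compared between days by limma interaction contrasts, adjusted over all genes. The genes covered were the pathway and erythroid-restricted genes, Alas1, Ppbp and Clec1b. These contrasts were run in the main model only, under none of the alternatives, and the share of all genes passing is not given. With the RNA ratios as covariates, calls over all genes for G6 against untreated tissue at day 60 went from 1751 to 27. Each difference of effects below passed 0.05. For G6 at day 60 minus day 5 it was 2.25 for Hmox1 (adjusted p = 5.3e-06), -2.49 for Tmod1 (3.8e-05), -1.64 for Selenbp1 (0.00027), -1.40 for Ank1 (0.00061), -0.98 for Fech (0.0038), -0.98 for Sptb, 1.302 for Tal1, -0.81 for Lmo2, 0.32 for Ireb2, -0.69 for Fth1, 1.46 for Slc40a1, 0.77 for Gclm and -0.58 for Flvcr1. For G6 at day 20 minus day 5 it was -0.96 for Ank1, -1.61 for Tmod1, 1.80 for Slc40a1, 0.67 for Prdx2, 0.80 for Gclm, 1.82 for Hmox1 and -0.85 for Flvcr1.

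For DC101 at day 20 minus day 5 the difference of effects was 1.61 for Bcl11a, 0.88 for Tfrc, 0.55 for Fbxl5 and 1.85 for Slc40a1. At day 60 minus day 20 it was -0.67 for Add2, -1.94 for Bcl11a, -0.48 for Uros, -1.02 for Tfrc, -0.39 for Fbxl5, -1.74 for Car2, -1.11 for Prdx2 and -1.42 for Hp, and at day 60 minus day 5 it was 1.56 for Hmox1.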

How the results depend on the processing

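Of 63 alternative values of the 12 Alas2 differences, 62 stayed within 1 pooled SD of the value given. Those SDs are wide. The 12 values with adjacent arrays averaged could not move, because every group held whole pairs, so they are no check. With the RNA ratios as covariates 4 of the 62 moved by over 1.5-fold, untreated minus control at day 60 to 2.91, G6 minus untreated at day 60 to -1.97, and DC101 minus untreated to -0.39 at day 20 and -3.18 at day 60; the exception, G6 minus DC101 at day 60, turned to 1.21. There is 1 Alas2 probe set, so no other could be tried. The 12 genes most like Alas2 shared 9 to 11 members with each alternative list. No paired analysis was possible because running numbers are not shared between groups. The causes of the moves below were not tested, and counts are given in order of day.

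With quantile normalization the erythroid-restricted calls were 2 for untreated against control at day 20, 2 for G6 against untreated at day 20 and 0 for G6 against DC101 at day 60 (2 with an unadjusted p under 0.05 in limma), and the pathway calls 3 for DC101 at day 20. With no filter, erythroid-restricted calls were 1 for untreated at day 5, 0 for DC101 at day 60 and 0 for G6 against DC101 at day 60 (1 and 2 with an unadjusted p under 0.05 in limma).

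With only the compared groups fitted, erythroid-restricted calls were 1 and 2 for untreated at days 5 and 20, and 0 for DC101 and for G6 against DC101 at day 60 (1 each with an unadjusted p under 0.05 in limma). Pathway calls were 2 and 3 for G6 at days 20 and 60, and 13 and 0 for DC101 at days 5 and 20 (10 of them with an unadjusted p under 0.05 at day 20). Calls over all genes were 89 and 344 for G6 at days 20 and 60, 3288 and 76 for DC101 at days 5 and 20, and 0 for G6 against DC101 at day 20 (1551 with an unadjusted p under 0.05).

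With the RNA ratios as covariates, erythroid-restricted calls were 0 and 1 for untreated at days 5 and 20, and 0 for G6 at day 20, DC101 at day 60 and G6 against DC101 at day 60 (0, 3, 2 and 2 of the zero counts with an unadjusted p under 0.05 in limma). Pathway calls were 9 for untreated at day 60, 0 for G6 at day 60, 1 and 3 for DC101 at days 20 and 60, and 2 and 0 for G6 against DC101 at days 20 and 60 (unadjusted, 9 for G6 and 8 for the last). Calls over all genes were 2358 for untreated, 27 for G6 and 183 for DC101 at day 60, and 86 and 0 for G6 against DC101 at days 20 and 60 (1777 unadjusted at day 60). In that last comparison Fech (0.44), Fbxl5 (-0.025), Isca1 (0.17), Flvcr1 (0.10), Hp (-0.029) and Slc48a1 (0.16) turned sign, as Ank1 did on its other probe set 1443291_at (1.13).

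With adjacent arrays averaged, erythroid-restricted calls were 0 for untreated at days 5 and 60, G6 at day 20, DC101 at day 60 and G6 against DC101 at days 5 and 60 (2, 3, 3, 1, 2 and 2 with an unadjusted p under 0.05 in limma). Pathway calls were 2 and 6 for G6 at days 20 and 60, 4, 0 and 3 for DC101 (7 unadjusted at day 20), and 5 and 13 for G6 against DC101 at days 5 and 60. Calls over all genes were 516 and 766 for G6 at days 20 and 60, 823, 295 and 697 for DC101, and 901 and 0 for G6 against DC101 at days 5 and 20 (1430 unadjusted at day 20). Without arrays 51 and 52, G6 at day 20 had 0 erythroid-restricted, 0 pathway and 98 calls over all genes, and DC101 at day 20 had 0 pathway and 151 (unadjusted, 2, 7 and 11 for the zero counts).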
